A study of Mus musculus with 8 samples.

Results

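Afatinib and UO126 were compared directly in c-Fos cells, to see which genes block of the EGFR family moved that block of MEK did not, and the reverse. Both inhibitors were given to ASZ001, a mouse basal cell carcinoma line grown in culture, carrying a doxycycline-inducible vector with c-FOS, a subunit of the transcription factor AP-1. Doxycycline was given for 24 h and was followed for 6 h by afatinib at 5 µM, by UO126 at 10 µM or by the vehicle DMSO. The 4 libraries compared, 2 with afatinib and 2 with UO126, belong to a design of 8 libraries, whose other groups were 2 libraries of c-Fos cells with DMSO and 2 libraries of cells with the empty vector, given doxycycline for 24 h with no inhibitor named. Each drug was used at 1 dose and 1 time, the doses differ between the drugs, and no readout of how far the kinases were blocked is part of the data used here. Whether paired libraries were separate cultures is not stated in the labels, and every p-value therefore measures only how far these libraries lay apart, which may be technical.

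Ligand-bound receptors of the EGFR family (EGFR, ERBB2, ERBB3 and ERBB4) start several kinase cascades at once. One runs through RAS, RAF, MEK1 and MEK2 to ERK1 and ERK2, which induce immediate-early genes and their own feedback inhibitors. Others run through PI3K, AKT and mTOR, which hold FOXO factors out of the nucleus and drive lipid, nucleotide and protein synthesis. Afatinib binds the kinase domain of the receptors covalently, whereas UO126 inhibits MEK1 and MEK2, which lie in the first of these cascades. Whether either drug also acted on other targets at these doses was not tested.

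All 12879 genes with enough counts for a test were compared, out of 24883 entries with a usable symbol. The other 12004 entries had too few counts. Total counts lay between 17901974 and 23126048 per library, of which Rn45s, the precursor of ribosomal RNA, made up 1.62% to 4.08%. Values per library are counts scaled to library size (CPM), which allow a gene to be compared between libraries but not with another gene. Differences between the drugs are log2 ratios (log2 fold changes) of afatinib over UO126 ± standard error (SE), so that a negative value means a lower level with afatinib. The RNA came from whole cultures, so fewer cells of a kind and less RNA per cell cannot be told apart. Keratin genes marked the cells as keratinocytes in all libraries: all 10 keratinocyte markers were counted, and they summed to 22268 and 22049 CPM with afatinib and 24783 and 26083 CPM with UO126. Markers of fibroblasts summed to 7.55 and 7.95 CPM against 9.89 and 11.2 CPM, with 3 of 12 at 0 in every library. Markers of leukocytes summed to 9.13 and 8.75 CPM against 8.02 and 9.55 CPM, with 2 of 10 at 0. Those of melanocytes summed to 40.6 and 45.4 CPM against 65.2 and 53.1 CPM, with 2 of 8 at 0, and those of endothelium to 149 and 149 CPM against 141 and 146 CPM, with 3 of 10 at 0.

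Fos and the drug targets were looked at first. Fos stood at 1163 and 1120.5 CPM with DMSO, 1107 and 1081 CPM with afatinib and 813 and 875 CPM with UO126, against 40.6 and 50.5 CPM with the empty vector. It was higher with afatinib than with UO126, with a log2 ratio of 0.37 ± 0.08 (edgeR adjusted p = 0.0084), but adjusted p was 0.064 without afatinib replicate 1. Both pairs of drug libraries were far above the empty vector, with the UO126 pair below the other c-Fos libraries. The labels do not say whether the vector held the mouse or the human gene. Erbb3, the kinase-poor partner of ERBB2, had 92.02 and 93.6 CPM with afatinib and 58.8 and 69.3 CPM with UO126, a log2 ratio of 0.54 ± 0.09 (edgeR adjusted p = 0.0029). Its DMSO libraries, at 43.8 and 41.8 CPM, were below all 4 drug libraries. Egfr had a log2 fold change of 0.21 ± 0.09 between the drugs (edgeR adjusted p = 0.17), and it rose against DMSO with afatinib by 0.44 ± 0.09 (edgeR adjusted p = 0.0026). Erbb2 was higher with afatinib by a log2 ratio of 0.27 ± 0.08 (edgeR adjusted p = 0.034), and that call ended on leaving out any of empty-vector replicate 1, either afatinib library or UO126 replicate 1 (adjusted p up to 0.14). Map2k1 and Map2k2, which encode MEK1 and MEK2, differed by 0.12 ± 0.07 and 0.07 ± 0.08 and did not pass the test (edgeR adjusted p = 0.29 and 0.65). Erbb4 had at most 1 count in any library and was not tested.

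The drugs differed at 1839 genes, 14.3% of those tested (adjusted p under 0.05, by edgeR's quasi-likelihood test and the Benjamini-Hochberg method). Of these, 919 were higher with afatinib (7.14% of the genes tested) and 920 were lower (7.14%). The differences were mostly small: 1761 of the called genes differed by less than 2-fold, 26 were at least 2-fold higher with afatinib (0.202%) and 50 at least 2-fold lower (0.388%). No gene was 4-fold higher, and the 8 that were 4-fold lower had at most 4.17 CPM on average in either group. The median log2 fold change over all genes was -0.0018, and the libraries of the groups did not overlap at 6783 genes (52.7%). The counts of calls leaned on single libraries. They came to 432 higher and 403 lower without afatinib replicate 1, and 391 and 307 without afatinib replicate 2, where the lone library left was assumed to vary like the other groups. Genes whose call ended without 1 library are given with that library. Counts of 0 to 2 called genes on a list are not set out library by library: with a single library left out they came to between 0 and 5.

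**Figure D1:**
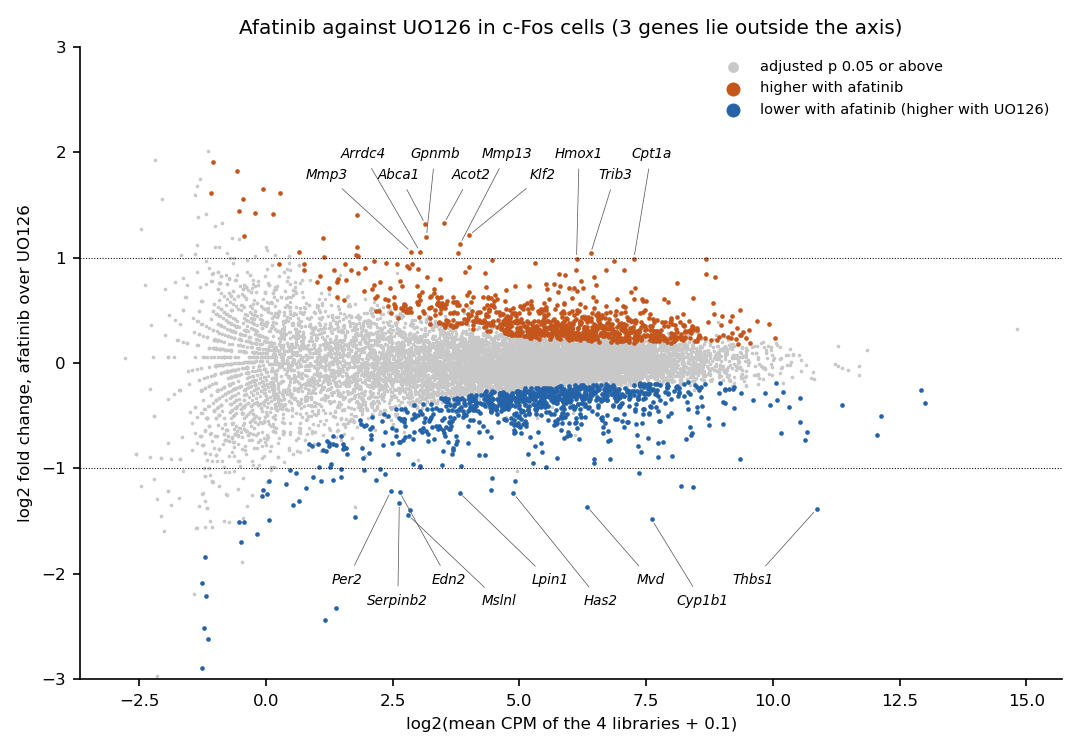
Log2 fold change of afatinib over UO126 (vertical axis) against the log2 of the mean CPM of the 4 libraries plus 0.1 (horizontal axis), 1 point per gene tested, with called genes in colour and dotted lines at 2-fold. Most of the 919 genes higher and 920 genes lower with afatinib lie within the lines, and 3 genes lie outside the axis.

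Measured against DMSO in the same fit, 2725 genes rose with afatinib (21.2%) and 2772 fell (21.5%), while 1788 rose with UO126 (13.9%) and 1893 fell (14.7%). Both of these comparisons use the same DMSO libraries, so their values are set side by side and no overlap is read from them. The counts of list members given below stand beside these shares and, between the drugs, beside 7.14% of all genes in each direction. Further counts took in only called genes whose higher group reached 5 CPM, whose libraries did not overlap and which had a gene name. Of these, 394 genes higher and 345 lower with afatinib than with UO126 also moved that way with afatinib against DMSO while UO126 stayed within 0.25 of DMSO on the log2 scale. The converse, a call with UO126 while afatinib stayed within 0.25 of DMSO, held for 97 genes higher with UO126 and 82 lower. In a separate count, 32 genes were called as falling with afatinib and rising with UO126, and 11 the opposite way. These can include genes already counted, such as Plat and Mt1, because a change within 0.25 can still be called. Many genes named below had to meet the same conditions, so a lack of overlap between the drugs there follows from the choice. It held at 52.7% of all genes tested. Of 744 genes on 42 lists of pathways and markers, 95 had too few counts for a test, 24 of them at 0 in every library.

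**Figure D2:**
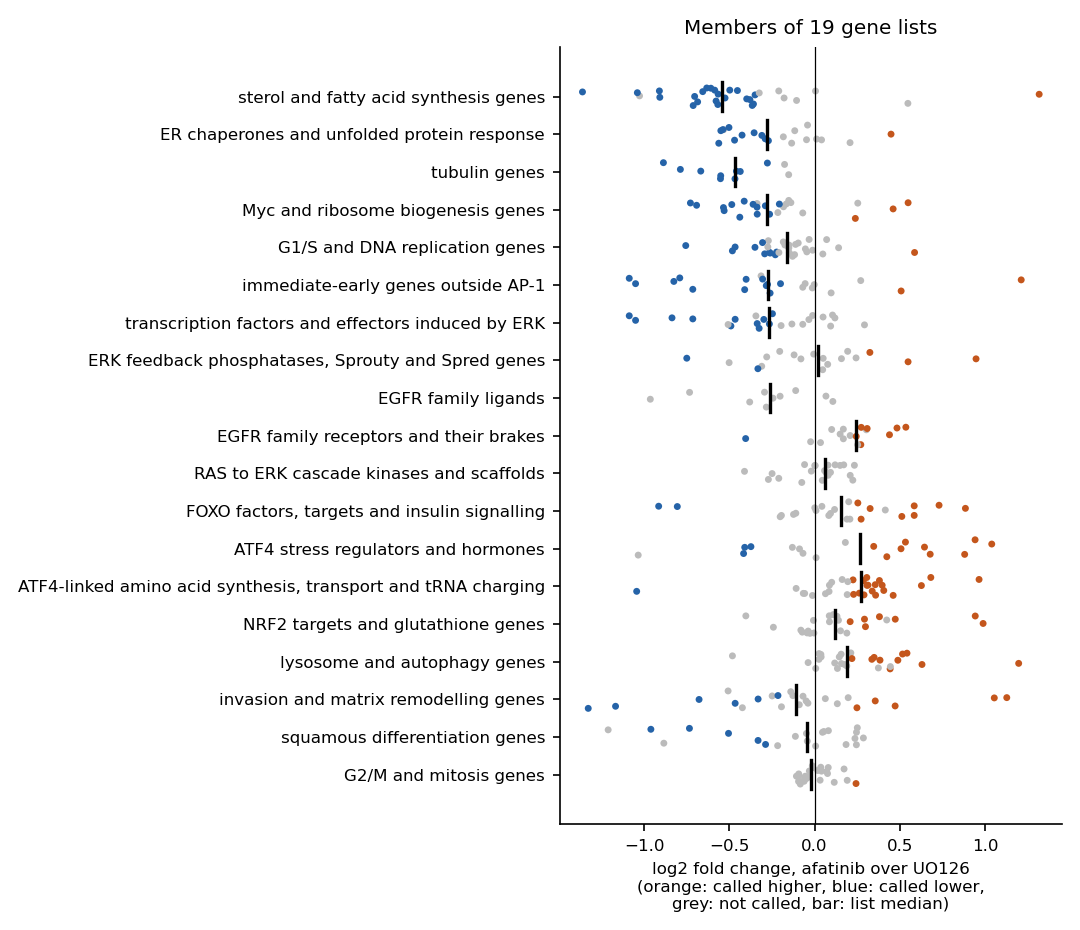
Log2 fold change of afatinib over UO126 (horizontal axis) for the tested members of 19 gene lists (rows), with called genes in colour and the list median as a bar. Sterol and tubulin genes lie mostly on the lower side and ATF4-linked genes mostly on the higher side of 0, beside a median of -0.0018 over all genes.

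Many feedback inhibitors of ERK signalling fell with both drugs. Of 18 tested (dual-specificity phosphatases, Sprouty and Spred genes, Errfi1 and Rasa1), 10 fell and 5 rose with afatinib, beside 21.5% and 21.2% of all genes, and 10 fell and 4 rose with UO126, beside 14.7% and 13.9%. Between the drugs 3 were higher and 2 lower with afatinib, beside 7.14% of all genes in each direction, with a median log2 fold change of 0.02. Without afatinib replicate 1 the 3 came to 1, and without UO126 replicate 1 to 5. Dusp6, the cytoplasmic phosphatase of ERK, had 55.7 and 62.2 CPM with DMSO, 8.91 and 8.89 CPM with afatinib and 14.5 and 15.5 CPM with UO126. All 4 drug libraries were below both DMSO libraries, and the afatinib pair was the lower, with a log2 ratio of -0.75 ± 0.10 (edgeR adjusted p = 4.6e-04). Spred1, another inhibitor of ERK signalling, also fell with both drugs, to 53.2 and 60.5 CPM with afatinib and 66.9 and 47.1 CPM with UO126 from 125 and 134 CPM with DMSO. Its difference between the drugs did not pass (log2 fold change -0.01 ± 0.15, edgeR adjusted p = 0.988). Dusp1, the nuclear phosphatase that acts on p38 and JNK as well as ERK, went the other way, with 56.1 and 48.3 CPM with afatinib and 28.9 and 25.2 CPM with UO126 against 19.2 and 20.1 CPM with DMSO. It rose with both drugs and was higher with afatinib by a log2 ratio of 0.95 ± 0.09 (edgeR adjusted p = 2.8e-05).

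Among 23 tested transcription factors and effectors that ERK induces, 11 were lower with afatinib than with UO126 and 0 higher, beside 7.14% of all genes in each direction, with a median log2 fold change of -0.27. Against DMSO 17 of them fell and 2 rose with afatinib, beside 21.5% and 21.2% of all genes. With UO126 15 fell and 3 rose, beside 14.7% and 13.9%. Egr1 was among the 3, at 84.8 and 61.8 CPM with UO126 against 35.2 and 34.9 CPM with DMSO (log2 fold change 1.07 ± 0.14, edgeR adjusted p = 7.1e-04). It had 44.0 and 45.4 CPM with afatinib, so a lower level with afatinib did not always mean a deeper fall. The count of 11 came to 5 without afatinib replicate 2. Ier3, an early-response survival gene, had 27.8 and 28.8 CPM with DMSO, 14.9 and 12.9 CPM with afatinib and 30.1 and 29.01 CPM with UO126. The UO126 libraries lay with DMSO and the afatinib libraries well below, a log2 ratio of -1.09 ± 0.10 (edgeR adjusted p = 1.3e-05). Fosl1, which encodes the AP-1 subunit FRA1, fell with both drugs, from 30.6 and 33.6 CPM to 8.08 and 7.88 CPM with afatinib and 14.9 and 13.7 CPM with UO126, and was lower with afatinib, with a log2 ratio of -0.84 ± 0.11 (edgeR adjusted p = 2.6e-04). Maff, a small MAF factor, fell with both drugs and was lower with afatinib (log2 fold change -1.05 ± 0.14, edgeR adjusted p = 3.2e-04), as was the urokinase receptor gene Plaur (log2 fold change -0.47 ± 0.08, edgeR adjusted p = 0.0013). Myc and Etv4 fell with both drugs and did not pass between them, with log2 fold changes of -0.07 ± 0.08 and 0.12 ± 0.10 (edgeR adjusted p = 0.61 and 0.49).

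Of 21 tested immediate-early genes outside AP-1, 12 were lower with afatinib than with UO126 and 2 higher. Against DMSO 10 fell and 5 rose with afatinib, beside 21.5% and 21.2% of all genes. With UO126 6 fell and 6 rose, beside 14.7% and 13.9%. The 12 came to 5 without afatinib replicate 1 and 4 without afatinib replicate 2. Ctgf and Cyr61, which encode secreted matrix-binding proteins and are also targets of YAP, fell with both drugs. Ctgf had 33.6 and 33.5 CPM with DMSO, 9.35 and 9.08 CPM with afatinib and 16.2 and 16.5 CPM with UO126. Cyr61 had 239 and 245 CPM with DMSO, 116 and 121 CPM with afatinib and 199 and 211 CPM with UO126. The afatinib libraries of both genes were the lowest of the 3 groups, with log2 fold changes from UO126 of -0.83 ± 0.09 and -0.79 ± 0.06 (edgeR adjusted p = 7.8e-05 and 4.6e-06). Klf2, a factor of quiescence, went the other way. It had 13.2 and 13.5 CPM with DMSO, 24.5 and 20.1 CPM with afatinib and 7.95 and 11.3 CPM with UO126, a log2 ratio of 1.21 ± 0.16 (edgeR adjusted p = 8.7e-04). Zfp36, whose product destabilises AU-rich mRNA, rose with both drugs and was higher with afatinib by a log2 ratio of 0.51 ± 0.08 (edgeR adjusted p = 8.1e-04).

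Further up the pathway, no ligand of the EGFR family was called between the drugs by edgeR or the DESeq2 Wald test (0 of 10 tested, 5 at an unadjusted edgeR p under 0.05, with a median log2 fold change of -0.26), and 6 of 10 fell with each drug against DMSO. Hbegf, which encodes a heparin-binding ligand, had 37.6 and 39.1 CPM with afatinib and 44.3 and 46.7 CPM with UO126 against 69.3 and 79.8 CPM with DMSO, and the difference of -0.24 ± 0.08 between the drugs did not pass (edgeR adjusted p = 0.064). Without UO126 replicate 1 it passed, at -0.28 (adjusted p = 0.040), as it did with no filter on low counts (adjusted p = 0.046), where 4 ligands were called lower with afatinib. Kinases and scaffolds between RAS and ERK gave 0 calls of 21 in both tests, with 7 at an unadjusted edgeR p under 0.05. Without UO126 replicate 1 they gave 4 higher and 2 lower. Of 17 tested receptors and their brakes, 7 were higher with afatinib and 1 lower, and the 7 came to 3 when either afatinib library was left out. Besides Erbb3, the insulin receptor gene Insr had 89.6 and 98.2 CPM with afatinib, 69.7 and 68.7 CPM with UO126 and 59.5 and 56.3 CPM with DMSO, a log2 ratio of 0.44 ± 0.07 (edgeR adjusted p = 0.0019). Both are genes that FOXO factors are known to induce.

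Thbs1 led the 345 genes that afatinib lowered while UO126 stayed near DMSO. Thbs1, which encodes the matricellular protein thrombospondin 1, had 3253 and 2907 CPM with DMSO, 989 and 1071 CPM with afatinib and 2712 and 2674 CPM with UO126. The afatinib libraries stood far below the other c-Fos libraries, a log2 ratio of -1.39 ± 0.07 (edgeR adjusted p = 1.5e-07), while UO126 differed from DMSO by -0.19 ± 0.07 (edgeR adjusted p = 0.054). Flnc, which encodes an actin cross-linking filamin, was at 2.97 and 3.25 CPM with afatinib and 5.72 and 6.78 CPM with UO126 (log2 fold change -1.002 ± 0.16, edgeR adjusted p = 0.0011), against 6.31 and 6.42 CPM with DMSO. Serpinb2, a urokinase inhibitor, fell with both drugs, to 3.26 and 3.67 CPM and 10.05 and 7.38 CPM from 18.1 and 18.2 CPM, and was lower with afatinib, with a log2 ratio of -1.33 ± 0.17 (edgeR adjusted p = 2.4e-04).

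Abca1 led the 394 genes that afatinib raised while UO126 stayed near DMSO. Abca1, the cholesterol and phospholipid exporter, had 4.68 and 7.05 CPM with DMSO, 12.2 and 12.7 CPM with afatinib and 4.73 and 5.26 CPM with UO126, a log2 ratio of 1.32 ± 0.16 (edgeR adjusted p = 1.5e-04). Map2k6, which encodes the p38 activator MKK6, was at 9.69 and 10.3 CPM with DMSO, 20.2 and 19.1 CPM with afatinib and 10.8 and 10.7 CPM with UO126 (log2 fold change 0.87 ± 0.10, edgeR adjusted p = 9.0e-05). Plat, the tissue plasminogen activator gene, had 76.7 and 75.1 CPM with afatinib, 41.6 and 43.2 CPM with UO126 and 51.6 and 47.4 CPM with DMSO (log2 fold change 0.84 ± 0.07, edgeR adjusted p = 1.2e-05). The small fall of Plat with UO126 against DMSO was also called (log2 fold change -0.22 ± 0.08, edgeR adjusted p = 0.042). In each of these genes both afatinib libraries were above the other 4 c-Fos libraries. The rule that picked them asks for most of this, namely a called rise over DMSO and no overlap with UO126. Smad6, an inhibitor of BMP signalling, went from 6.80 and 7.16 CPM with DMSO to 13.8 and 13.3 CPM with afatinib, against 7.46 and 8.16 CPM with UO126 (log2 fold change 0.79 ± 0.12, edgeR adjusted p = 6.9e-04). The collagenase gene Mmp13 and the stromelysin gene Mmp3 were higher with afatinib by 1.13 ± 0.12 and 1.05 ± 0.16 (edgeR adjusted p = 5.1e-05 and 9.1e-04). Mmp13 had 17.6 and 21.1 CPM with afatinib and 8.84 and 8.86 CPM with UO126, and Mmp3 8.67 and 10.7 CPM with afatinib and 5.18 and 4.15 CPM with UO126. Over the list of invasion and matrix remodelling, 5 of 24 tested genes were higher and 6 lower with afatinib, and the 5 came to 2 without afatinib replicate 2.

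**Figure D3:**
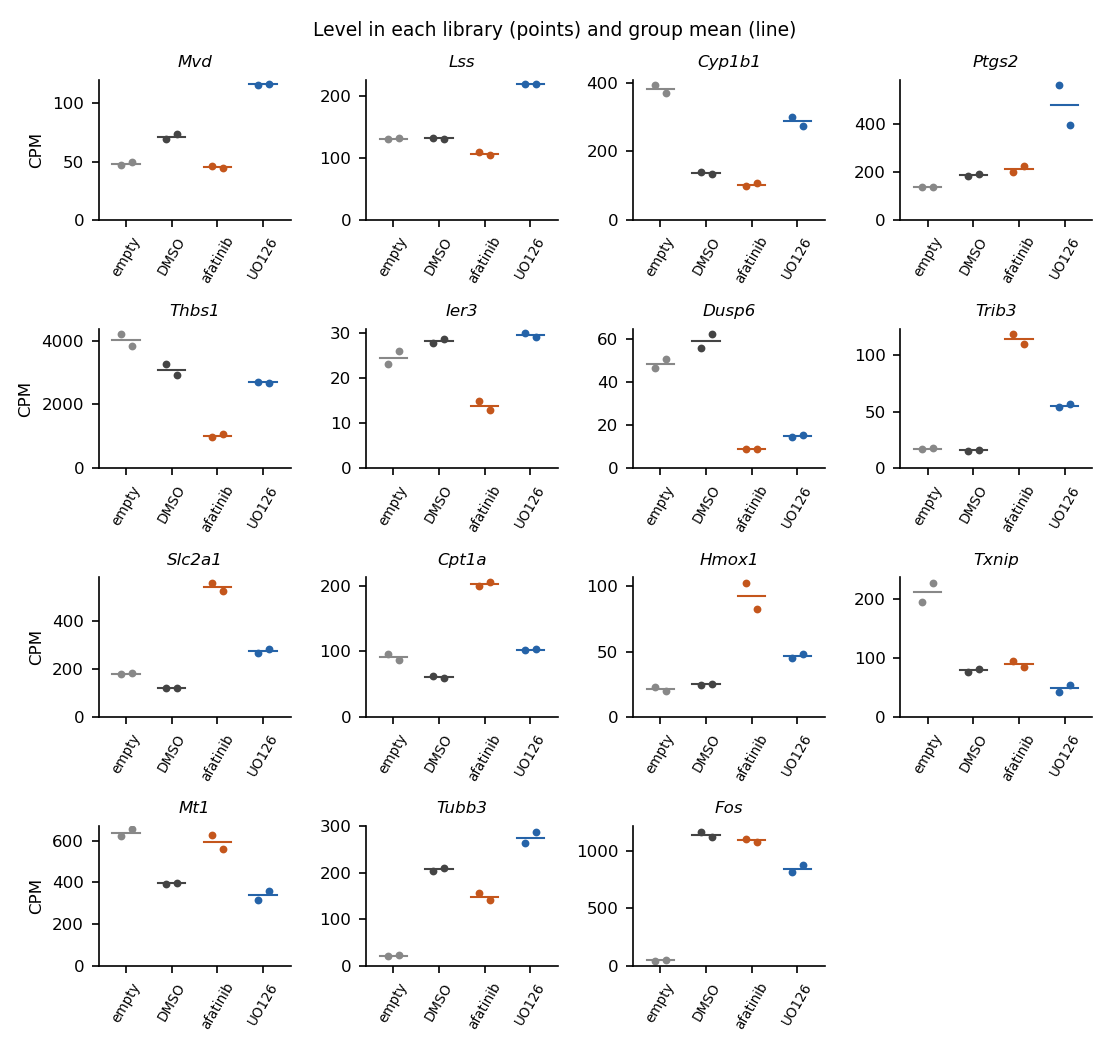
CPM (vertical axes, from 0) of 15 genes in the 8 libraries, with points for libraries and lines for group means, in cells with the empty vector and in c-Fos cells with DMSO, afatinib or UO126. Thbs1 and Ier3 are lowest with afatinib among the c-Fos cells, Cyp1b1 and Ptgs2 highest there with UO126, and Trib3, Slc2a1, Cpt1a and Hmox1 rise with both drugs and further with afatinib.

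Most genes of cholesterol and fatty acid synthesis were lower with afatinib than with UO126. Of 30 tested, 22 were lower and 1 was higher, beside 7.14% of all genes in each direction, with a median log2 fold change of -0.55. Against DMSO, 12 fell and 2 rose with afatinib, and 18 rose and 0 fell with UO126. Mvd, the decarboxylase that makes isopentenyl pyrophosphate, had 68.96 and 73.2 CPM with DMSO, 46.2 and 44.1 CPM with afatinib and 116 and 116 CPM with UO126. The DMSO libraries thus lay between the drugs, and the drugs differed by a log2 ratio of -1.36 ± 0.07 (edgeR adjusted p = 1.3e-07). Lss, which closes the sterol ring, had 133 and 131 CPM with DMSO, 109.6 and 105 CPM with afatinib and 220.5 and 221 CPM with UO126 (log2 fold change -1.04 ± 0.06, edgeR adjusted p = 3.6e-07). Squalene synthase (Fdft1) had 102 and 103 CPM with DMSO, 78.98 and 74.7 CPM with afatinib and 148 and 141 CPM with UO126 (log2 fold change -0.91 ± 0.06, edgeR adjusted p = 2.2e-06), and lanosterol demethylase (Cyp51) 669.6 and 715 CPM with DMSO, 452 and 454 CPM with afatinib and 909 and 791 CPM with UO126 (log2 fold change -0.91 ± 0.07, edgeR adjusted p = 4.1e-06). In all 4 genes the order was afatinib below DMSO below UO126, with no overlap of libraries between the drugs. Mvd and Fdft1 were picked by a rule that asks for a fall with afatinib and a rise with UO126. No overlap between the drugs was a condition for naming Mvd, Lss and Fdft1, and Cyp51 was chosen after its values were seen.

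The fatty acid branch moved with the sterol branch. Fasn, the fatty acid synthase gene, differed by -0.66 ± 0.07, Acly, which supplies cytosolic acetyl-CoA, by -0.53 ± 0.06, and the desaturase gene Scd2 by -0.50 ± 0.05 (edgeR adjusted p = 4.0e-05, 5.0e-05 and 5.5e-05). Insig1, which retains the SREBP precursors in the ER when sterol is plentiful, had 138 and 144 CPM with afatinib, 157 and 151 CPM with DMSO and 247 and 216 CPM with UO126 (log2 fold change -0.71 ± 0.08, edgeR adjusted p = 5.2e-05). The genes of the SREBP factors themselves, Srebf1 and Srebf2, differed by 0.01 ± 0.08 and -0.11 ± 0.07 and did not pass (edgeR adjusted p = 0.977 and 0.34). Abca1, which sends cholesterol out of the cell, was the 1 member higher with afatinib. No library left out moved the count of 22 by more than 1.5 times.

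**Figure D4:**
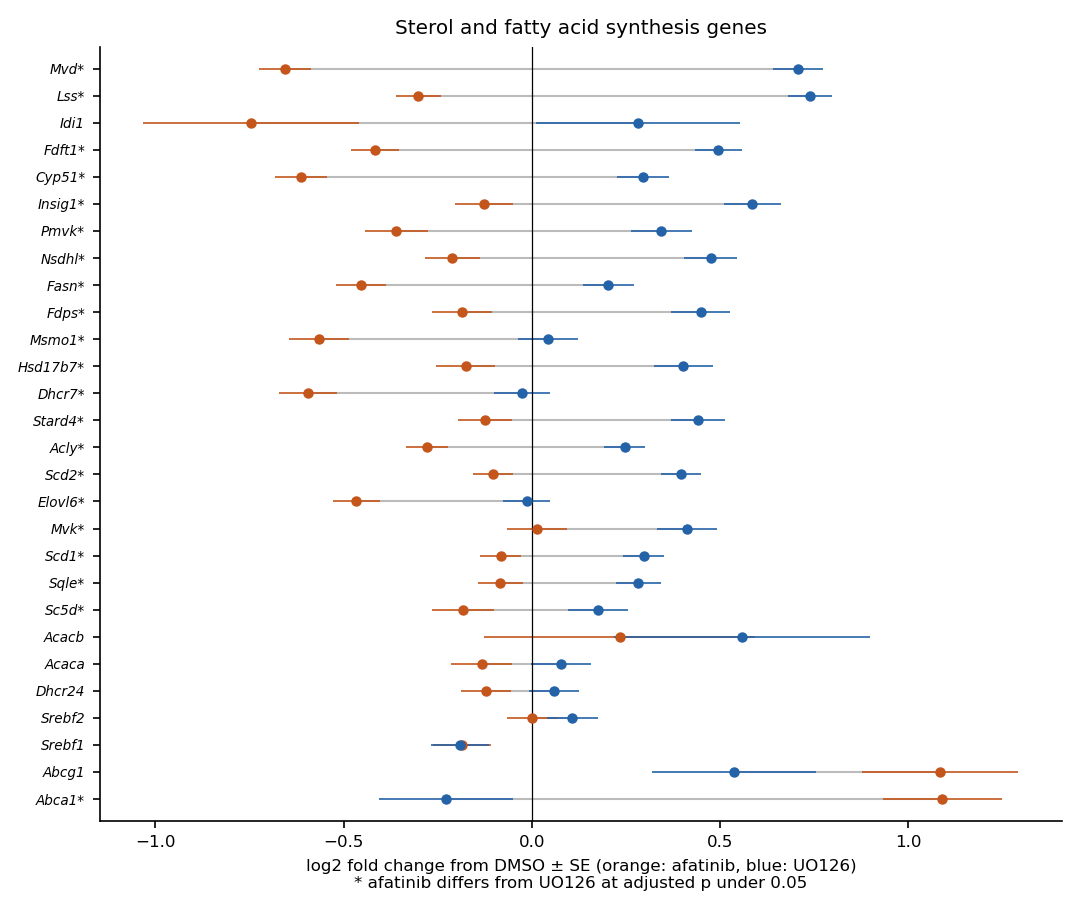
Log2 fold change from DMSO with its SE (horizontal axis) for 28 of the 30 tested sterol and fatty acid synthesis genes (rows), with afatinib in orange and UO126 in blue. For Mvd, Lss, Fdft1 and Cyp51 the points lie on opposite sides of 0, and an asterisk marks the genes at which the drugs differed.

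Lpin1, the phosphatidate phosphatase and a regulator of lipid genes, lay outside that list and moved alike, from 9.58 and 10.1 CPM with DMSO to 18.9 and 20.5 CPM with UO126 against 7.84 and 8.89 CPM with afatinib (log2 fold change -1.23 ± 0.11, edgeR adjusted p = 1.1e-05). Fatty acid use went the other way. Cpt1a, the gate for entry of fatty acids into mitochondria, had 63.3 and 59.3 CPM with DMSO, 201 and 206 CPM with afatinib and 102 and 103 CPM with UO126. It rose with both drugs and was higher with afatinib by a log2 ratio of 0.99 ± 0.07 (edgeR adjusted p = 1.9e-06). Acot2, a mitochondrial acyl-CoA thioesterase, had 3.65 and 3.35 CPM with DMSO, 18.4 and 14.03 CPM with afatinib and 6.03 and 6.87 CPM with UO126 (log2 fold change 1.33 ± 0.14, edgeR adjusted p = 5.1e-05), with all 4 drug libraries above DMSO and the afatinib pair highest.

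Part of the genes of the endoplasmic reticulum (ER) were also lower with afatinib than with UO126. Of 20 tested genes of ER folding and the unfolded protein response, 10 were lower with afatinib than with UO126 and 1 higher (median -0.28), and the count of 10 came to 6 without afatinib replicate 2. Against DMSO, 8 fell and 3 rose with afatinib, and 6 rose and 0 fell with UO126. Hspa5, which encodes BiP, the main Hsp70 of the ER, had 1434 and 1401 CPM with DMSO, 1216 and 1173 CPM with afatinib and 1785 and 1744 CPM with UO126, a log2 ratio of -0.56 ± 0.06 (edgeR adjusted p = 2.8e-05). Pdia4, a disulphide isomerase, had 235 and 242 CPM with DMSO, 213 and 215 CPM with afatinib and 298 and 294 CPM with UO126 (log2 fold change -0.47 ± 0.06, edgeR adjusted p = 1.8e-04). Both genes fell with afatinib and rose with UO126. Xbp1, whose spliced mRNA encodes a factor of the response, was lower with afatinib than with UO126, with a log2 ratio of -0.55 ± 0.06 (edgeR adjusted p = 1.1e-04), Manf, a secreted ER stress protein, with -0.54 ± 0.07 (edgeR adjusted p = 2.9e-04), and the calcium-binding chaperone gene Calr with -0.36 ± 0.06 (edgeR adjusted p = 0.0013). Against DMSO, Xbp1 rose with UO126 by 0.52 ± 0.06 (edgeR adjusted p = 5.4e-05) and did not pass with afatinib (-0.03 ± 0.06, edgeR adjusted p = 0.77). Manf and Calr fell with afatinib and did not pass with UO126.

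Cytoskeletal genes followed. Of 11 tested tubulin genes, 9 were lower with afatinib than with UO126 and 0 higher (median -0.47), and all 11 fell with afatinib against DMSO, beside 5 that fell and 2 that rose with UO126. Tubb3, a beta-tubulin best known from neurons, had 204 and 210.3 CPM with DMSO, 157 and 141 CPM with afatinib and 263 and 288 CPM with UO126, a log2 ratio of -0.89 ± 0.07 (edgeR adjusted p = 5.0e-06). Tubb5, a beta-tubulin of dividing cells, had 1822 and 1917 CPM with DMSO, 911 and 848 CPM with afatinib and 1365 and 1430.4 CPM with UO126 (log2 fold change -0.67 ± 0.06, edgeR adjusted p = 1.6e-05), so that it fell with both drugs and further with afatinib. Reads of tubulin genes can be shared among near-identical copies, as can those of Actb and Actg1. These actin genes were lower with afatinib, with log2 fold changes of -0.40 ± 0.06 and -0.68 ± 0.07 (edgeR adjusted p = 4.7e-04 and 3.2e-05). Actb had 2228 and 2323 CPM with afatinib and 3003 and 3008 CPM with UO126, and Actg1 253 and 259.7 CPM and 384 and 439 CPM. On the list of SRF targets and actin genes 6 of 17 were lower and 1 higher, and the 6 came to 3 without afatinib replicate 1 and 2 without afatinib replicate 2.

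Genes of ribosome assembly fell with both drugs, and most were lower with afatinib than with UO126. On the list of Myc and ribosome biogenesis genes, 20 of 24 tested fell with each drug against DMSO, while 3 rose with afatinib and 2 with UO126. Between the drugs 13 were lower and 3 higher with afatinib (median -0.28). The 13 came to 7 without afatinib replicate 2, and the 3 came to 1 when either afatinib library was left out. Nop56, a core protein of box C/D snoRNPs, had 225 and 226 CPM with DMSO, 81.99 and 83.1 CPM with afatinib and 131 and 142 CPM with UO126, a log2 ratio of -0.73 ± 0.06 (edgeR adjusted p = 1.1e-05). The 3 groups did not overlap, with afatinib lowest. Rrp12, a ribosome export factor, was lower with afatinib, with a log2 ratio of -0.69 ± 0.07 (edgeR adjusted p = 2.8e-05), Polr1b, a subunit of RNA polymerase I, with -0.54 ± 0.07 (edgeR adjusted p = 2.1e-04) and nucleolin (Ncl) with -0.41 ± 0.06 (edgeR adjusted p = 8.1e-04). Mxi1, which encodes a MYC antagonist, was higher with afatinib, at 64.5 and 62.1 CPM against 42.6 and 43.9 CPM with UO126 and 41.7 and 40.6 CPM with DMSO (log2 fold change 0.55 ± 0.07, edgeR adjusted p = 1.9e-04).

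Genes of S-phase entry fell with both drugs. Of 32 tested genes of G1/S and DNA replication, 28 fell with each drug against DMSO, and 1 rose with afatinib and 0 with UO126. Between the drugs 10 were lower with afatinib and 1 higher (median -0.16), and the 10 came to 4 when either afatinib library was left out. Cdc6, which loads the replicative helicase, had 44.5 and 40.9 CPM with DMSO, 12.4 and 10.9 CPM with afatinib and 19.7 and 19.6 CPM with UO126, a log2 ratio of -0.76 ± 0.10 (edgeR adjusted p = 2.8e-04). Its partner in loading, Cdt1, was lower with afatinib, with a log2 ratio of -0.48 ± 0.08 (edgeR adjusted p = 0.0015), and thymidine kinase 1 (Tk1) with -0.47 ± 0.08 (edgeR adjusted p = 0.0025). E2f2, an activator of these genes, was higher with afatinib by a log2 ratio of 0.59 ± 0.11 (edgeR adjusted p = 0.0034). Of 26 tested mitotic genes, 1 was higher with afatinib and 0 lower. Ccnb1 and Plk1, the cyclin and the kinase of mitotic entry, differed by 0.02 ± 0.16 and -0.04 ± 0.07 (edgeR adjusted p = 0.960 and 0.75).

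The stress programme of ATF4, a factor that is translated when initiation factor eIF2 is phosphorylated and that supplies amino acids, rose with both drugs in most of its members, and many were higher with afatinib. ATF4 binds composite C/EBP-ATF response elements (CARE). The motif TGATGNAA, searched on both strands of RefSeq promoter windows of build GRCm38.p6 from 250 bases before to 50 after the start site, was present at 7 of 16 tested regulators and hormones with a window (43.8%) and at 9 of 22 amino acid, transport and tRNA charging genes (40.9%), against 270 of all 9954 tested genes with a window (2.71%). The genes were placed on these lists because ATF4 is known to act on them, and a match is a description, not a bound site. The sequences are shown to let the matches be read at 6 genes that were higher with afatinib. They were picked from the genes with a match after the values were seen, so that they say nothing of the genes without one, and other genes with a match, Aars among them, are not printed. The whole window of Trib3 and stretches of 38 bases around the match at the others are given 5′ to 3′ on the strand of the gene, with the match in capitals.
Trib3, chr2:152344011-152344310: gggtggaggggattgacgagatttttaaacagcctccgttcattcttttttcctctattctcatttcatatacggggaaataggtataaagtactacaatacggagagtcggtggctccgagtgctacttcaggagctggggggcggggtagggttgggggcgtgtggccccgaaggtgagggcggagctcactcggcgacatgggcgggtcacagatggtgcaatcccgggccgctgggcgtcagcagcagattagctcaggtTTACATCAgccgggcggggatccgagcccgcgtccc
Chac1, chr2:119351034-119351071: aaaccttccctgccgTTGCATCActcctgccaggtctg
Fgf21, chr7:45615607-45615644: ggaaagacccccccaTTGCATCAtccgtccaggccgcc
Vldlr, chr19:27216805-27216842: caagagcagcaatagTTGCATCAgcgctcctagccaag
Asns, chr6:7693210-7693247: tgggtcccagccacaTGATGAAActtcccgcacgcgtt
Slc7a11, chr3:50443657-50443694: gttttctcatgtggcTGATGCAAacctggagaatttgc
The match read TTGCATCA, the reverse strand of the motif, at Chac1, Fgf21 and Vldlr, beginning 193, 139 and 200 bases before the start. At Trib3 the match began 14 bases after the start, and at Asns and Slc7a11 it lay 23 and 66 bases before it in the other orientation. Slc7a11 held a second match, beginning 47 bases before the start.

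Among 18 tested regulators and hormones of the programme, 15 rose and 1 fell with afatinib against DMSO, and 16 rose and 0 fell with UO126. Between the drugs 9 were higher and 3 lower with afatinib (median 0.26), and the 3 came to 0 without afatinib replicate 1 and 1 without afatinib replicate 2. Trib3, a pseudokinase that restrains AKT and ATF4, had 15.6 and 16.1 CPM with DMSO, 118 and 109 CPM with afatinib and 54.1 and 56.5 CPM with UO126, a log2 ratio of 1.04 ± 0.07 (edgeR adjusted p = 1.3e-06). Chac1, which degrades glutathione, had 29.7 and 29.2 CPM with DMSO, 182 and 164 CPM with afatinib and 94.7 and 93.3 CPM with UO126 (log2 fold change 0.88 ± 0.07, edgeR adjusted p = 4.1e-06), and the stress hormone gene Fgf21 0.435 and 0.227 CPM with DMSO, 10.5 and 8.62 CPM with afatinib and 4.82 and 5.12 CPM with UO126 (log2 fold change 0.94 ± 0.16, edgeR adjusted p = 0.0015). In all 3 genes the groups did not overlap, with DMSO lowest and afatinib highest. No overlap between the drugs was a condition for naming them. Vldlr, a lipoprotein receptor, differed by 0.53 ± 0.07 and Atf5, a related factor, by 0.68 ± 0.08 (edgeR adjusted p = 2.1e-04 and 1.0e-04). Atf4 itself and Ddit3, which encodes CHOP, rose with both drugs and did not pass between them. Atf4 had 544 and 515 CPM with afatinib and 581 and 578 CPM with UO126 against 413 and 421 CPM with DMSO (log2 fold change between the drugs -0.13 ± 0.06, edgeR adjusted p = 0.14), and Ddit3 differed by -0.07 ± 0.07 (edgeR adjusted p = 0.56).

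Of 30 tested genes of amino acid synthesis, transport and tRNA charging, 18 were higher with afatinib and 1 lower (median 0.27), and the 18 came to 8 without afatinib replicate 1. Against DMSO 24 rose and 2 fell with afatinib, and 18 rose and 1 fell with UO126. Slc7a11, the cystine importer, had 30.04 and 31.9 CPM with DMSO, 81.9 and 89.9 CPM with afatinib and 60.3 and 46.8 CPM with UO126, a log2 ratio of 0.68 ± 0.11 (edgeR adjusted p = 0.0025). Slc6a9, a glycine transporter, had 29.4 and 29.9 CPM with DMSO, 166 and 142 CPM with afatinib and 75.3 and 82.3 CPM with UO126 (log2 fold change 0.97 ± 0.08, edgeR adjusted p = 6.3e-06). Asns, asparagine synthetase, had 307 and 312 CPM with DMSO, 589 and 546 CPM with afatinib and 445 and 440.0 CPM with UO126 (log2 fold change 0.36 ± 0.06, edgeR adjusted p = 0.0014). All 3 had the afatinib libraries highest and the DMSO libraries lowest. Psph, the last enzyme of serine synthesis, was higher with afatinib by a log2 ratio of 0.63 ± 0.07 (edgeR adjusted p = 9.4e-05), Slc7a5, the importer of large neutral amino acids, with 0.46 ± 0.07 (edgeR adjusted p = 0.0012), and Aars, alanyl-tRNA synthetase, with a log2 ratio of 0.40 ± 0.06 (edgeR adjusted p = 0.0010).

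**Figure D5:**
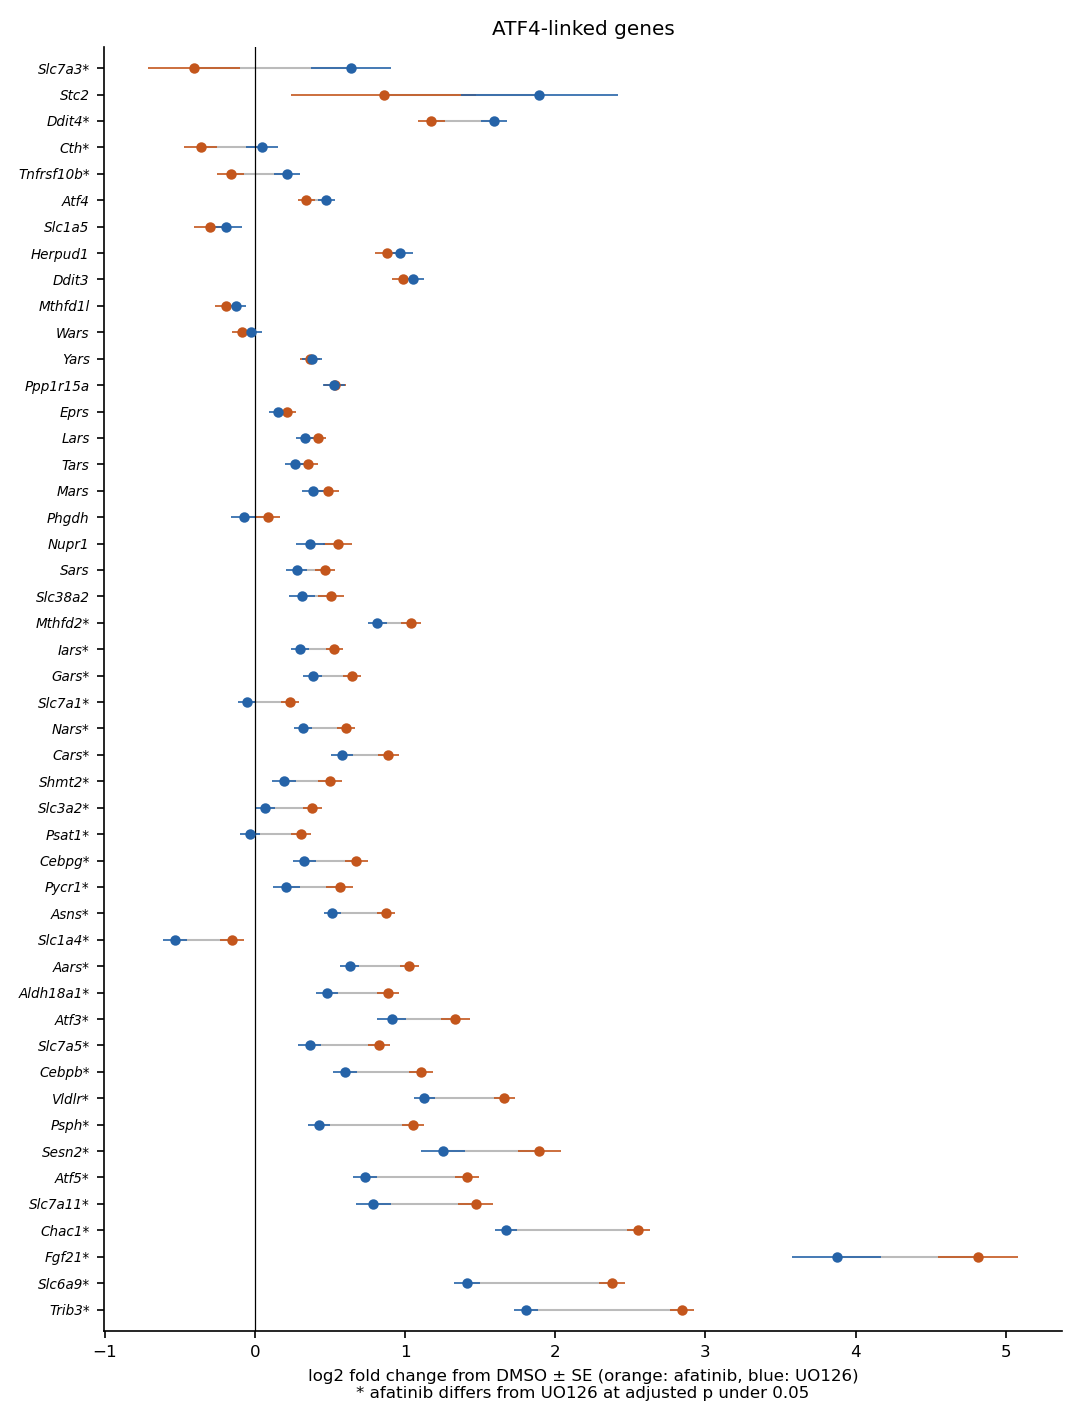
Log2 fold change from DMSO with its SE (horizontal axis) for the tested ATF4-linked genes of both lists (rows), with afatinib in orange and UO126 in blue. For Trib3, Chac1, Fgf21 and Slc6a9 both points lie to the right of 0 with afatinib further out, and an asterisk marks the genes at which the drugs differed.

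Some antioxidant genes were higher with afatinib. Of 24 tested NRF2 targets and glutathione genes, 7 were higher with afatinib than with UO126 and 0 lower, and the 7 came to 2 without afatinib replicate 1 and 4 without afatinib replicate 2. Against DMSO 15 rose and 0 fell with afatinib, beside 21.2% and 21.5% of all genes, and 8 rose and 1 fell with UO126, beside 13.9% and 14.7%. Hmox1, heme oxygenase 1, had 24.7 and 25.2 CPM with DMSO, 103 and 82.6 CPM with afatinib and 45.1 and 48.3 CPM with UO126, a log2 ratio of 0.99 ± 0.10 (edgeR adjusted p = 4.2e-05). Gclc, the catalytic subunit that starts glutathione synthesis, was higher with afatinib by a log2 ratio of 0.38 ± 0.06 (edgeR adjusted p = 0.0017), whereas Nqo1, another NRF2 target, differed by -0.24 ± 0.10 and did not pass (edgeR adjusted p = 0.13). The antioxidant response core TGANNNNGC was found on either strand at 13 of the 18 of these genes with a window (72.2%) and at 4780 of the 9954 (48%). It was in neither window of Gstm1, a glutathione transferase gene that was higher with afatinib by a log2 ratio of 0.94 ± 0.21 (edgeR adjusted p = 0.011), a call that ended without afatinib replicate 1 (adjusted p = 0.073). The metallothionein genes Mt1 and Mt2, whose products bind zinc and whose reads can be shared, were both highest with afatinib among the c-Fos cells. Mt1 had 391 and 397 CPM with DMSO, 629 and 558 CPM with afatinib and 316 and 357 CPM with UO126. Mt2 had 356 and 367 CPM with DMSO, 538 and 510.1 CPM with afatinib and 278 and 306 CPM with UO126. It rose with afatinib by 0.54 ± 0.06 and fell with UO126, with -0.31 ± 0.06 (edgeR adjusted p = 1.5e-05 and 0.0026), and the drugs differed by 0.82 ± 0.07 at Mt1 and 0.84 ± 0.06 at Mt2 (edgeR adjusted p = 1.5e-05 and 3.7e-06).

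Lysosome and autophagy genes were higher with afatinib in 10 of 27 tested and lower in 0 (median 0.19). Against DMSO 18 rose and 1 fell with afatinib, and 8 rose and 1 fell with UO126. Gpnmb, a lysosomal glycoprotein gene, had 3.70 and 3.30 CPM with DMSO, 11.3 and 13.3 CPM with afatinib and 4.69 and 6.09 CPM with UO126, a log2 ratio of 1.198 ± 0.16 (edgeR adjusted p = 2.9e-04). Map1lc3b, which encodes the autophagosome protein LC3B, had 101 and 97.8 CPM with DMSO, 163 and 151 CPM with afatinib and 102 and 114 CPM with UO126 (log2 fold change 0.54 ± 0.07, edgeR adjusted p = 4.0e-04). In both the afatinib libraries were above all others. Gla, a lysosomal galactosidase gene, was higher with afatinib by a log2 ratio of 0.63 ± 0.09 (edgeR adjusted p = 7.0e-04), Flcn, a regulator of mTORC1 at the lysosome, with 0.52 ± 0.10 (edgeR adjusted p = 0.0053), the autophagy kinase gene Ulk1 with 0.49 ± 0.08 (edgeR adjusted p = 0.0013) and the cargo receptor gene Sqstm1 with 0.44 ± 0.06 (edgeR adjusted p = 3.1e-04).

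On the list of FOXO factors, their targets and insulin signalling, 8 of 24 tested genes were higher with afatinib and 2 lower (median 0.15). Against DMSO 13 rose and 4 fell with afatinib, and 10 rose and 4 fell with UO126. Sesn3, a FOXO target that dampens mTORC1, had 16.5 and 15.7 CPM with DMSO, 30.7 and 32.3 CPM with afatinib and 21.6 and 20.4 CPM with UO126, a log2 ratio of 0.58 ± 0.10 (edgeR adjusted p = 0.0025). Eif4ebp1, the repressor of cap-dependent translation that mTORC1 releases, had 76.3 and 76.3 CPM with DMSO, 229.9 and 186 CPM with afatinib and 134 and 144 CPM with UO126 (log2 fold change 0.58 ± 0.09, edgeR adjusted p = 8.1e-04). Both rose with each drug, with afatinib highest. Klhl24, an adaptor that targets keratin 14 for degradation, was higher with afatinib by a log2 ratio of 0.73 ± 0.10 (edgeR adjusted p = 3.0e-04) and the growth arrest gene Gadd45a with 0.51 ± 0.08 (edgeR adjusted p = 8.1e-04). Its relative Gadd45b was lower with afatinib, at 64.9 and 57.3 CPM against 115 and 116 CPM with UO126 and 77.4 and 74.5 CPM with DMSO (log2 fold change -0.92 ± 0.07, edgeR adjusted p = 4.3e-06), having fallen with afatinib and risen with UO126.

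Genes of glucose uptake and glycolysis did not move as 1 group: 4 of 20 tested were higher with afatinib and 2 lower. The 4 came to 1 without afatinib replicate 1, and to 2 without afatinib replicate 2, empty-vector replicate 1 or either DMSO library. Slc2a1, the glucose transporter GLUT1, had 123 and 123 CPM with DMSO, 562 and 529 CPM with afatinib and 266 and 284 CPM with UO126, a log2 ratio of 0.99 ± 0.06 (edgeR adjusted p = 8.4e-07). It rose with both drugs in all 4 libraries. Hk2, the hexokinase that traps glucose in the cell, went the other way, from 71.8 and 68.6 CPM with DMSO to 30.7 and 31.5 CPM with afatinib and 55.2 and 56.2 CPM with UO126 (log2 fold change -0.84 ± 0.07, edgeR adjusted p = 6.6e-06). Pfkfb3, which makes the activator of phosphofructokinase, was lower with afatinib than with UO126, with a log2 ratio of -0.54 ± 0.10 (edgeR adjusted p = 0.0025). Against DMSO, Pfkfb3 rose with UO126 by 0.61 ± 0.10 (edgeR adjusted p = 4.7e-04) and did not pass with afatinib (0.07 ± 0.10, edgeR adjusted p = 0.60). Vegfa, the endothelial growth factor gene, rose with both drugs and was higher with afatinib, at 45.6 and 44.6 CPM against 29.6 and 30.2 CPM (log2 fold change 0.59 ± 0.08, edgeR adjusted p = 3.2e-04).

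Among called genes whose higher group reached 5 CPM and whose libraries did not overlap, Cyp1b1 was one of the 10 with the largest differences in favour of UO126. It encodes a cytochrome P450 that is induced by the aryl hydrocarbon receptor (AHR), a ligand-activated factor that senses foreign aromatic compounds. Cyp1b1 had 138 and 134 CPM with DMSO, 301 and 274 CPM with UO126 and 98.5 and 107 CPM with afatinib, and 393 and 369 CPM with the empty vector. It rose with UO126 by 1.08 ± 0.07 and fell with afatinib, with -0.41 ± 0.07 (edgeR adjusted p = 2.2e-07 and 4.4e-04), and the drugs differed by a log2 ratio of -1.48 ± 0.07 (edgeR adjusted p = 1.3e-07). Its promoter window is shown because of that difference and because AHR binds the core GCGTG. It is given 5′ to 3′ on the minus strand, where the gene lies, in build GRCm38.p6 of RefSeq, and the capitals mark the 1 match, which is on the opposite strand.
Cyp1b1, chr17:79715012-79715311: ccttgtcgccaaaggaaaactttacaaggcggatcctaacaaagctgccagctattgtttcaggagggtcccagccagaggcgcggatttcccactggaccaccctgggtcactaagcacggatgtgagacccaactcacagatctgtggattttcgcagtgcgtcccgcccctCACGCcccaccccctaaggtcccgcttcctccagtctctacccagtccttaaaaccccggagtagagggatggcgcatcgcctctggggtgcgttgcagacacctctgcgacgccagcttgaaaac
The same core stood at 4 of the 7 tested AHR genes with a window (57.1%) and at 5630 of the 9954 (56.6%). Of 10 tested genes on the AHR list, 3 were lower and 3 higher with afatinib, and the 3 higher came to 1 without afatinib replicate 1. Tiparp, an AHR-induced ADP-ribosyltransferase that restrains AHR, had 64.1 and 64.6 CPM with DMSO, 101 and 79.98 CPM with UO126 and 50.6 and 58.7 CPM with afatinib, a log2 ratio of -0.72 ± 0.10 (edgeR adjusted p = 8.7e-04). Cyp1a1 was listed at 0 in every library. Ahr itself differed by -0.08 ± 0.10 and did not pass (edgeR adjusted p = 0.65).

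Ptgs2, the gene of cyclooxygenase 2, had 183 and 191 CPM with DMSO and 198 and 225 CPM with afatinib but 561 and 395 CPM with UO126, a log2 ratio of -1.18 ± 0.15 (edgeR adjusted p = 0.0039). The UO126 libraries were the highest and also lay far apart from each other. Mslnl, a mesothelin-like gene, had 3.48 and 3.24 CPM with DMSO, 4.48 and 2.93 CPM with afatinib and 9.47 and 10.6 CPM with UO126 (log2 fold change -1.44 ± 0.17, edgeR adjusted p = 1.3e-04). It rose with UO126, and with afatinib it stayed within 0.25 of DMSO on the log2 scale. Edn2, an endothelin gene, had 6.12 and 11.02 CPM with UO126 against 3.41 and 3.90 CPM with afatinib (log2 fold change -1.22 ± 0.27, edgeR adjusted p = 0.016), but adjusted p rose to as much as 0.113 without afatinib replicate 1, and the call also ended without afatinib replicate 2. Has2, a hyaluronan synthase gene, fell with afatinib and rose with UO126, at 16.5 and 18.5 CPM and 44.3 and 38.2 CPM around 31.2 and 25.00 CPM (log2 fold change -1.24 ± 0.12, edgeR adjusted p = 5.1e-05).

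Txnip led the 82 genes that UO126 lowered while afatinib stayed near DMSO. Txnip, the thioredoxin-binding arrestin that glucose induces, had 75.9 and 82.05 CPM with DMSO, 95.3 and 84.1 CPM with afatinib and 42.2 and 54.98 CPM with UO126, a log2 ratio of 0.89 ± 0.13 (edgeR adjusted p = 0.0032). Its paralogue in the arrestin family, Arrdc4, had 6.64 and 8.35 CPM with DMSO, 11.1 and 10.9 CPM with afatinib and 5.40 and 5.12 CPM with UO126 and moved in opposite directions with the drugs (log2 fold change 1.06 ± 0.13, edgeR adjusted p = 2.2e-04). Slc6a8, the creatine transporter, had 70.7 and 73.8 CPM with UO126 against 96.2 and 88.6 CPM with DMSO and 109 and 108 CPM with afatinib (log2 fold change 0.59 ± 0.07, edgeR adjusted p = 8.0e-05). Its small rise with afatinib against DMSO was also called (log2 fold change 0.24 ± 0.07, edgeR adjusted p = 0.010), so the drugs moved it in opposite directions. The receptor gene Epha1 had 31.02 and 27.8 CPM with DMSO, 28.1 and 24.7 CPM with afatinib and 17.8 and 18.2 CPM with UO126 (log2 fold change 0.55 ± 0.09, edgeR adjusted p = 0.0017). Mgea5, which removes O-linked N-acetylglucosamine from proteins, rose with afatinib by 0.42 ± 0.06 and fell with UO126, with -0.34 ± 0.06 (edgeR adjusted p = 6.9e-05 and 9.0e-04), at 338 and 352 CPM against 201 and 207 CPM.

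In the keratinocyte programme the drugs differed at a few keratins. Of 21 tested genes of squamous differentiation, 5 were lower with afatinib and 0 higher, and the 5 came to 3 without afatinib replicate 2. Krt6a, a keratin of wounds and hyperproliferation, had 1592 and 1650.5 CPM with DMSO, 1191 and 1188 CPM with afatinib and 1842 and 2117 CPM with UO126, a log2 ratio of -0.73 ± 0.07 (edgeR adjusted p = 1.5e-05). Krt16 and Krt17, its companions, were lower with afatinib than with UO126, with log2 fold changes of -0.51 ± 0.08 and -0.33 ± 0.06, as was the basal keratin gene Krt14, with -0.37 ± 0.06 (edgeR adjusted p = 0.0011, 0.0030 and 7.9e-04). Against DMSO, Krt16 rose with both drugs, by 0.61 ± 0.08 with afatinib and 1.12 ± 0.08 with UO126 (edgeR adjusted p = 5.1e-05 and 6.0e-07). Krt17 fell with afatinib (-0.45 ± 0.06, edgeR adjusted p = 5.4e-05). Krt14 rose with UO126 (0.27 ± 0.06, edgeR adjusted p = 0.0029) and did not pass with afatinib (-0.10 ± 0.06, edgeR adjusted p = 0.15). Reads of these keratins can be shared among near-identical copies. Markers of the cornified envelope did not separate the drugs by a margin that passed: Sprr1a differed by 0.25 ± 0.10, Tgm1 by 0.01 ± 0.52 and Ivl by -1.21 ± 0.77 (edgeR adjusted p = 0.11, 0.997 and 0.34). Of 15 tested basal and hemidesmosome genes, 2 were higher and 3 lower, and the 3 came to 1 when either afatinib library was left out. Ovol1, a factor of epidermal differentiation, fell with afatinib and rose with UO126, at 8.76 and 9.17 CPM and 15.6 and 17.1 CPM around 12.6 and 10.6 CPM (log2 fold change -0.87 ± 0.11, edgeR adjusted p = 3.2e-04).

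Smaller signalling lists held calls that leaned on single libraries. Hedgehog genes, which drive basal cell carcinoma, were higher with afatinib in 4 of 10 tested and lower in 0, and the 4 came to 2 without afatinib replicate 1 or empty-vector replicate 1 and to 1 without afatinib replicate 2. Cdon, a co-receptor, was higher by a log2 ratio of 0.41 ± 0.07 (edgeR adjusted p = 0.0021), while Ptch1 differed by -0.34 ± 0.12 and did not pass (edgeR adjusted p = 0.085). Notch genes were lower in 4 of 12 and higher in 1, and the 4 came to 2 without afatinib replicate 1 and without UO126 replicate 1. Jag1, a Notch ligand gene, had 219 and 252 CPM with afatinib, 380.4 and 394 CPM with UO126 and 422 and 392 CPM with DMSO (log2 fold change -0.72 ± 0.07, edgeR adjusted p = 4.1e-05). Hes1, a Notch target, was lower with afatinib than with UO126, with a log2 ratio of -0.41 ± 0.07 (edgeR adjusted p = 0.0023). Against DMSO, Hes1 rose with UO126 by 0.32 ± 0.07 (edgeR adjusted p = 0.0044) and did not pass with afatinib (-0.08 ± 0.07, edgeR adjusted p = 0.37). AP-1 genes were higher in 4 of 10 and lower in 2, and the 4 came to 1 without afatinib replicate 1. Of 15 YAP-linked genes 5 were lower and 3 higher, and without afatinib replicate 2 these came to 2 and 1. Of 16 SMAD-linked genes 4 were higher and 0 lower. The 4 came to 1 without afatinib replicate 1 and to 2 without afatinib replicate 2, DMSO replicate 1 or either empty-vector library.

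The apoptosis regulators of the BCL2 family gave 0 calls of 13 between the drugs by edgeR and by the DESeq2 Wald test, with 3 at an unadjusted edgeR p under 0.05. Bcl2l11, which encodes BIM and is restrained by ERK, rose with both drugs, from 6.75 and 5.51 CPM with DMSO to 7.01 and 10.1 CPM with afatinib and 9.82 and 9.78 CPM with UO126. The difference between the drugs was -0.19 ± 0.15 and did not pass (edgeR adjusted p = 0.46). Of 17 tested p53 targets 1 was higher and 2 lower, of 15 interferon genes 1 was higher and 0 lower, of 15 genes of epithelial or mesenchymal state 1 was higher and 1 lower, and of 15 heat shock genes 2 were higher and 2 lower. Cytokine genes were lower in 3 of 14 and higher in 1, and the 3 came to 1 without afatinib replicate 1. Cyclin D genes and CDK inhibitors were higher in 1 of 11 and lower in 1, Wnt genes higher in 1 of 9, and antigen presentation genes lower in 1 of 9. These lists are small, and their counts are given as counts alone, beside the 7.14% of all genes called in each direction.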

How the data were processed

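Messenger RNA was profiled in 8 libraries made with the Illumina TruSeq RNA kit, per the labels' protocols, which do not say whether strand was kept, so overlapping and antisense genes were not separated. The authors aligned reads with TopHat and counted them with HOMER at the level of isoforms, per the series' design text, and the submitters' processing notes also name DESeq2, with no role, and the build mm9, without versions. The deposited table holds expected counts, 1 entry per symbol and not normalized. Of its values above 0, 47.9% to 49.5% per library end in 0.5. Of 24909 entries, 26 with symbols that had become dates (0.218% to 0.246% of the counts) were dropped.

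The expected counts were rounded and tested in R 4.3.3 with edgeR 4.0.16: filtering by expression (minimum count 10, minimum total 15), TMM scaling, and the robust quasi-likelihood test, two-sided, on all 8 libraries (1 coefficient for each group, residual degrees of freedom 4). P-values were adjusted by Benjamini-Hochberg over the 12879 genes, with a common biological coefficient of variation of 0.0596. Errors are SE from the F statistic, and genes were called at an adjusted p under 0.05. The steps were tested on simulated counts. Between libraries of a group the chi-square per degree of freedom lay between 4.14 and 20.5, so the 2 libraries of a group were not copies of the same counts. That value cannot tell separate cultures from repeat preparations, and libraries of different groups were not compared in this way.

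The members, gene lists and rules were chosen with earlier results of these data known. Named genes are Fos, the drug targets and, among called genes with at least 5 CPM and no overlap of libraries, the 10 largest differences in each direction, up to 6 per direction moved by 1 drug, 5 per direction moved oppositely, and up to 3 per list. Members of a list named beyond these, and genes named because they missed the threshold, were chosen after their values were seen. Not every gene under this rule is reported. Alternatives were DESeq2 1.42.0 size factors and Wald test, other filters, fewer libraries, a replicate block, no robust estimation, a stricter threshold, omission of Rn45s and of each library in turn. Promoter windows are from RefSeq, build GRCm38.p6, and the files' own build was not used for coordinates.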

Additional observations from a re-analysis of the deposited data

How the results depend on the processing

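Across 18 alternatives no called difference of a named gene reversed its direction, and 92 of 130 named genes stayed on their side of the threshold in all of them. Leaving out each library in turn gave between 391 and 1316 genes higher with afatinib, between 307 and 1102 lower, between 18 and 40 at least 2-fold higher and between 29 and 64 at least 2-fold lower, against 919, 920, 26 and 50. Fitted to the 4 libraries alone, 481 were higher and 505 lower. At an adjusted p under 0.01, 378 were higher and 408 lower, 15 and 31 of them at least 2-fold. The DESeq2 Wald test gave 14 and 29 at least 2-fold, and the filter of at least 5 CPM gave 9 and 24. The cause was not tested. Libraries of the same number did not pair: in afatinib and UO126 the deviations of replicate 1 from the group means correlated at -0.361, and in other pairs of groups between -0.206 and 0.177. With a replicate block 706 were higher, 702 of them shared with the counts above, and 711 lower, 708 of them shared. A crossed pairing in the 4 libraries, added after seeing the data, gave 1840 higher and 1690 lower. Groups of 2 libraries limit every difference given here: leaving out either afatinib library removed more than 1 in 2 of the calls in each direction. The UO126 libraries lay furthest apart, with a chi-square per degree of freedom of 20.5, and genes under 5 CPM were not named by size.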

Other observations

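The genes below were chosen after their values were seen. Several host genes of small nucleolar RNAs (snoRNAs), which carry snoRNAs in their introns, were lower with afatinib. Of 14 tested genes named Snhg, 8 were lower and 0 higher than with UO126 (beside 7.14% of all genes in each direction), with a median log2 fold change of -0.29. Against DMSO, 10 fell with afatinib and 8 with UO126. Snhg12 had 38.3 and 37.2 CPM with DMSO, 12.5 and 13.7 CPM with afatinib and 32.02 and 28.1 CPM with UO126 (log2 fold change -1.202 ± 0.11, edgeR adjusted p = 1.5e-05). Zfas1, another host, had 103 and 103 CPM with DMSO, 38.7 and 35.7 CPM with afatinib and 66.1 and 72.4 CPM with UO126 (log2 fold change -0.90 ± 0.07, edgeR adjusted p = 6.3e-06), and Gas5, a host that accumulates in arrested cells, 186 and 194 CPM with DMSO, 109 and 106 CPM with afatinib and 139.9 and 146 CPM with UO126 (log2 fold change -0.41 ± 0.06, edgeR adjusted p = 9.8e-04). In Snhg12 and Zfas1 both afatinib libraries were below all other c-Fos libraries. Genes of cytosolic ribosomal proteins, whose reads can be shared with pseudogenes, gave 3 lower and 1 higher of 84 between the drugs, after 55 had fallen with afatinib and 40 with UO126. Of 36 proteasome subunit genes, 2 were lower with afatinib than with UO126 and 0 higher.

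Rgs16, which shortens G protein signals, had 14.97 and 16.7 CPM with DMSO, 0.682 and 0.642 CPM with afatinib and 3.66 and 3.55 CPM with UO126, and 3.90 and 3.74 CPM with the empty vector. It fell with both drugs and was lower with afatinib (log2 fold change -2.44 ± 0.22, edgeR adjusted p = 1.5e-05). Fgf5, a growth factor gene that ends hair growth, had 18.6 and 21.1 CPM with DMSO, 24.8 and 25.9 CPM with afatinib and 47.1 and 45.2 CPM with UO126 (log2 fold change -0.86 ± 0.08, edgeR adjusted p = 2.5e-05), so that it rose with both drugs and further with UO126. Of 3 iron genes looked at, 2 were higher with afatinib, while the transferrin receptor gene Tfrc did not pass (log2 fold change -0.10 ± 0.10, edgeR adjusted p = 0.56). Steap3, a ferrireductase, had 43.4 and 44.9 CPM with DMSO, 112 and 114 CPM with afatinib and 61.6 and 67.1 CPM with UO126 (log2 fold change 0.82 ± 0.07, edgeR adjusted p = 7.8e-06), and Slc40a1, the iron exporter ferroportin, had 8.33 and 8.30 CPM with DMSO, 19.96 and 21.4 CPM with afatinib and 12.7 and 9.32 CPM with UO126 (log2 fold change 0.91 ± 0.13, edgeR adjusted p = 5.0e-04). Among mitochondrial enzymes of amino acid and one-carbon metabolism, Gpt2, an alanine transaminase, had 25.7 and 24.4 CPM with DMSO, 142 and 131 CPM with afatinib and 75.2 and 72.6 CPM with UO126 (log2 fold change 0.88 ± 0.07, edgeR adjusted p = 4.1e-06), and Pck2, which makes phosphoenolpyruvate, 13.3 and 13.6 CPM with DMSO, 62.8 and 52.8 CPM with afatinib and 33.4 and 35.6 CPM with UO126 (log2 fold change 0.75 ± 0.09, edgeR adjusted p = 1.8e-04). Both rose with each drug, with the afatinib libraries highest. Of the clock genes, Per2, named by its size, had 9.47 and 8.52 CPM with DMSO, 3.21 and 3.30 CPM with afatinib and 7.68 and 7.47 CPM with UO126 (log2 fold change -1.22 ± 0.14, edgeR adjusted p = 1.1e-04), and Nr1d1, which encodes the repressor REV-ERB alpha, was lower with afatinib (log2 fold change -0.56 ± 0.08, edgeR adjusted p = 6.0e-04). Per1 and Cry1 did not pass, with log2 fold changes of -0.16 ± 0.09 and 0.03 ± 0.09 (edgeR adjusted p = 0.27 and 0.86), nor did Per3, Cry2, Dbp and Nr1d2 (edgeR adjusted p = 0.71, 0.42, 0.58 and 0.54).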
